A study of Mus musculus with 10 samples.

Results

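S100a8, S100a9, Lcn2, Slpi, Defb1 and Defb14, 6 genes of antimicrobial and alarmin proteins, were followed in single cells of mouse embryonic back skin. They were found by their symbols among 32285 genes listed at E15.5 and E17.5 and 27998 at E16.5. They had been chosen for their measured levels in basal, suprabasal and Ptprc-positive cells by stage and group, so their levels in those cells are described here without a test. RNA was counted in 10 libraries of dissociated dorsal skin. MOFfl/fl/K14Cre embryos (MOF cKO) were taken with controls at E15.5 and E16.5, with 2 libraries a group at each stage. QPCfl/fl/K14Cre embryos (QPC cKO) were taken with a control at E17.5, with 1 library a group. The mice were of a mixed C57Bl/6J and CD-1 background. MOF, encoded by Kat8, is the acetyltransferase of lysine 16 on histone H4, and QPC, encoded by Uqcrq, is a subunit of respiratory complex III. K14Cre deletes in cells that express keratin 14, so the dermis and blood cells of these embryos were not targeted. The study described E15.5 MOF cKO replicate 6 as a mosaic in which part of the epidermis kept the histone mark, and replicate 5 as an even knockout.

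S100A8 and S100A9 bind calcium and zinc and form calprotectin, which starves microbes of metal and acts on TLR4 and RAGE when released. Neutrophils and monocytes store them, and keratinocytes make them when the epidermis is wounded or inflamed. Lipocalin 2 (Lcn2) traps bacterial iron carriers, SLPI inhibits neutrophil elastase, and the beta-defensins Defb1 and Defb14 permeabilize microbial membranes. Defb1 is known for steady production in epithelia, whereas Defb14, Lcn2 and the S100 pair are known as inducible.

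S100a8 (chr3:90668978-90670035, plus strand) and S100a9 (chr3:90692632-90695721, minus strand) lie close together on chromosome 3. Slpi (chr2:164354070-164389095) and Lcn2 (chr2:32384633-32388252) lie on chromosome 2, both on the minus strand. Defb14 (chr8:19194357-19195212) and Defb1 (chr8:21776599-21795185) lie on chromosome 8, both on the plus strand. Coordinates are those of GENCODE vM21 on mm10, and the RefSeq starts of Slpi and S100a8 used below lie inside their GENCODE genes. Of the 250 bases before the S100a8 start only the first 157 are shown, as an annotated exon begins after them. The sequence before the start of 3 members that were high together in E16.5 MOF cKO keratinocytes is shown from RefSeq (GRCm38.p6). It runs 5′ to 3′ on the strand of the gene and leaves out annotated exons. Capitals mark a C/EBP motif (TTGCNNAA, either strand).
S100a8 (chr3:90668821-90668977, plus strand): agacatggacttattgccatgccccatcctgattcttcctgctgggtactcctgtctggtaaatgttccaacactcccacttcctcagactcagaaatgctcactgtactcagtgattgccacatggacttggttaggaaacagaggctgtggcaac
S100a9 (chr3:90695722-90695971, minus strand): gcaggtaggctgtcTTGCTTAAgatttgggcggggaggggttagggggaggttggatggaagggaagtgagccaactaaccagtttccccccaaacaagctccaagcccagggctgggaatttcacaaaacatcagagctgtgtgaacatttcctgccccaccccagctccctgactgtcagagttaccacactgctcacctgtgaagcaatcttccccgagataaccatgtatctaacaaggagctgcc
Slpi (chr2:164356508-164356757, minus strand): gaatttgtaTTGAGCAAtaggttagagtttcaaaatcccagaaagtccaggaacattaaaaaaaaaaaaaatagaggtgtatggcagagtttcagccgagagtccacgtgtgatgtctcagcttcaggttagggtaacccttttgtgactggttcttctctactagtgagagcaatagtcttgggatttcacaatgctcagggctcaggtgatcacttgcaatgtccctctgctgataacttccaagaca
RefSeq windows from 250 bases before to 50 after the start were at hand for 4 of the 6 genes. The windows of S100a9, Slpi and Lcn2 held a C/EBP motif, at -236, -241 and -216 from the start, and the window of S100a8 held none. That motif stood in 10.8% of 32851 mouse windows. No AP-1 motif (TGANTCA, in 7.81% of windows) and no NF-kB motif (in 4.51%) was in the 4 windows. The letters of a TATA box (TATAAA, in 13.6% of windows) were in the windows of S100a8 and S100a9, within bases not printed. They began at -30 in S100a8 and at 0, on the start itself, in S100a9. A match describes these letters only.

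Cells were kept that had more than 1000 but fewer than 6000 genes detected and less than 10% of their UMIs (unique molecular identifiers, 1 per counted RNA molecule) from mitochondrial genes. Basal-gate cells had at least 10 UMIs of Krt5 plus Krt14 and under 10 of Krt1 plus Krt10. Suprabasal-gate cells had at least 20 UMIs of Krt1 plus Krt10, and Ptprc-positive cells at least 1 UMI of Ptprc, which encodes the leukocyte antigen CD45. Fibroblast-gate cells, which played no part in choosing the genes, had at least 10 UMIs of Col1a1 plus Col3a1, under 10 of either keratin pair and none of Ptprc. A library held 13609345 to 203392303 UMIs and 716 to 10653 kept cells. The E16.5 MOF cKO libraries had 21 and 22 basal-gate and 9 and 13 suprabasal-gate cells, against 239 to 464 and 31 to 66 in the E16.5 controls. Of their 30 and 35 keratinocyte-gate cells, 18 and 28 also held at least 5 collagen UMIs, and so did 173 of 270 and 211 of 530 in the E16.5 controls. At E17.5 these were 2701 of 2997 in the control and 614 of 1138 in QPC cKO. Kept cells of different libraries shared 0 to 36 barcodes in 45 pairs, at most 0.354% of the smaller library. Levels are given as CPM, the UMIs of a gene per 1e6 UMIs of a library and gate. Kat8, counted at its 3′ end, was at 10.3 to 13.7 CPM in basal-gate cells of the 4 E15.5 libraries, with 13.4 in MOF cKO replicate 5, so it did not check these labels. At E16.5 it was at 16.4 and 14.9 in the controls against 8.31 and 4.51 in MOF cKO, from 3 and 2 UMIs. Kat8 was also lower in the E16.5 MOF cKO fibroblast gate, at 2.64 and 5.06 against 10.3 and 8.45. Uqcrq was at 103 CPM in basal-gate cells of the E17.5 control and at 45.7 in QPC cKO, whereas in the fibroblast gate it was at 76.1 and 124.

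The first question was which cells held the RNA of each gene. Over all kept cells there were 29119 UMIs of S100a8, 29076 of S100a9, 2065 of Lcn2, 1680 of Slpi, 5677 of Defb1 and 91 of Defb14. The shares below leave out barcodes removed by the cell filter, whose part differed widely between libraries. They held 63.2% of all Defb1 UMIs in E17.5 QPC cKO and 54.3% in its control. In E15.5 MOF cKO replicate 6 they held 63.5% of the S100a8, 62.0% of the S100a9 and 78.2% of the Lcn2. Classes of cells were set by sums of marker genes after the data had been seen. Only 37 cells were neutrophil-marked (at least 20 UMIs of 12 neutrophil genes), and they held 91.3% of the Lcn2, 74.9% of the S100a9 and 57.7% of the S100a8 UMIs. Most of these UMIs were from the E17.5 libraries. Over the other 8 libraries the shares were 84.6% of the Lcn2, 46.0% of the S100a9 and 32.9% of the S100a8. In E16.5 MOF cKO replicate 1 such cells held 14.5% of the S100a9 and 19.2% of the S100a8. In E15.5 control replicate 3 the 2 cells so marked held no S100a8 or S100a9 UMI, and the basal gate held 85.5% of the S100a9. A class of 729 monocyte-marked cells (at least 5 UMIs of Ly6c2, Ccr2, Plac8 and Ms4a4c) held 35.6% of the S100a8 but only 4.15% of the S100a9 UMIs. Most of that S100a8, 7288 of 10369 UMIs, came from E16.5 MOF cKO replicate 1. Without that library the shares were 16.1% of the S100a8 and 2.03% of the S100a9. Slpi was spread over monocyte-marked (32.7%), neutrophil-marked (19.9%) and mast-marked cells (19.3%) and the suprabasal (13.3%) and basal (8.33%) gates. Without the same library the monocyte-marked share of Slpi was 20.8%, and without E17.5 the neutrophil-marked share was 13.1%. Defb1 lay mostly in keratinocytes. The basal gate held 74.7% of the Defb1 UMIs and the suprabasal gate 19.3%, and neutrophil-marked cells held none. For Defb14 the same gates held 52.7% and 14.3%, and the fibroblast gate held 26.4%, or 24 of 91 UMIs. Of these 24 UMIs 23 were in 1 cell of E16.5 MOF cKO replicate 2, where they made up 82.1% of its Defb14.

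**Figure D1:**
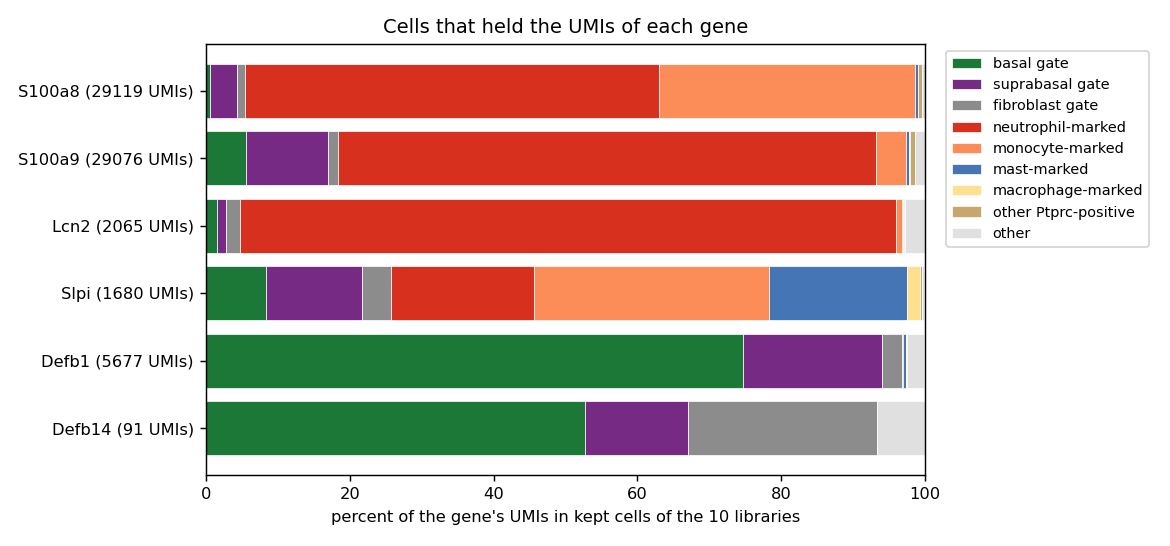
Percent of the UMIs of each gene (x axis, 0 to 100) held by classes of kept cells over the 10 libraries, 1 bar a gene with its total UMIs. Neutrophil-marked cells hold 91.3% of Lcn2, 74.9% of S100a9 and 57.7% of S100a8 (84.6%, 46.0% and 32.9% without E17.5), with 35.6% of S100a8 in monocyte-marked cells (16.1% without E16.5 MOF cKO replicate 1), whereas Defb1 lies in the basal and suprabasal gates.

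The S100 pair was not counted in 1 ratio. Pooled over libraries, UMIs of S100a9 per UMI of S100a8 came to 1.3 in neutrophil-marked, 0.117 in monocyte-marked, 3.1 in suprabasal-gate and 10.3 in basal-gate cells. The basal-gate ratio differed between groups, at 21.9 in E15.5 MOF cKO, 5.72 in E16.5 MOF cKO and 1.32 in the E17.5 control. The E15.5 controls had 760 UMIs of S100a9 to 8 of S100a8. In the E17.5 control the ratio was much the same in the fibroblast gate (1.48) and in neutrophil-marked cells (1.43), so it was not particular to the basal gate there. The suprabasal-gate ratio was 3.43 in E15.5 and 2.95 in E16.5 MOF cKO. In monocyte-marked cells it ran from 0 in the E16.5 controls, with 199 S100a8 UMIs, to 0.302 in E15.5 MOF cKO. In E16.5 MOF cKO replicate 1 the 3 neutrophil-marked cells had a ratio of 0.214, below the 0.987 to 2.05 of the other libraries with at least 20 S100a8 UMIs in such cells.

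**Figure D2:**
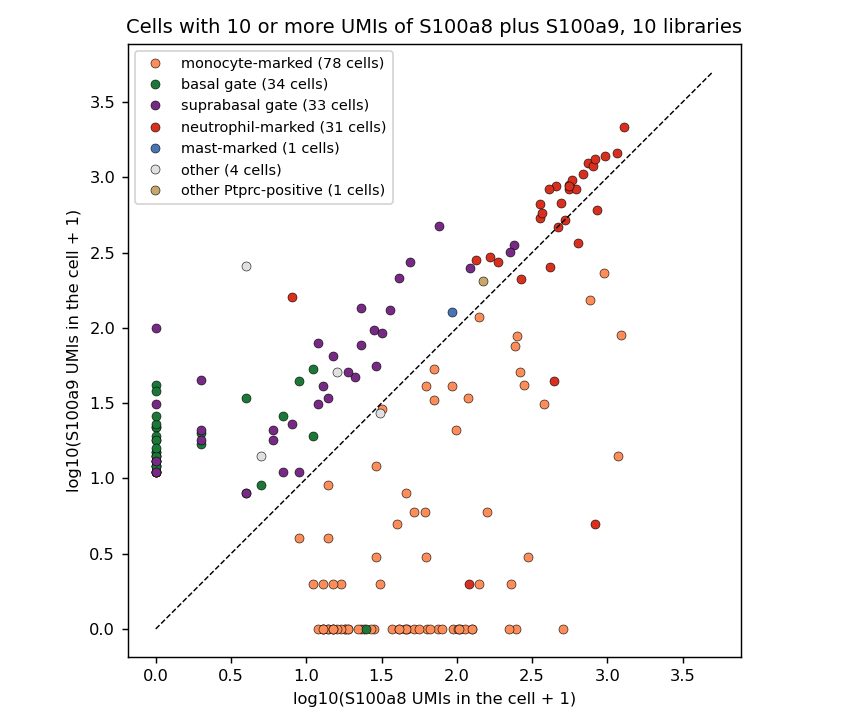
Log10 UMIs plus 1 of S100a8 (x axis) and S100a9 (y axis) in single cells with at least 10 UMIs of the pair, coloured by class, with a dashed line where both are equal. The 78 monocyte-marked cells lie mostly below the line, the 31 neutrophil-marked cells mostly near it with a few far off on both sides, and the 34 basal-gate and 33 suprabasal-gate cells mostly above it.

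Suprabasal-gate cells of E16.5 MOF cKO held high levels of S100a9, S100a8 and Slpi. S100a9 was at 0 and 3.63 CPM in the controls against 7408 and 2926 in MOF cKO, where 7 of 9 and 10 of 13 cells had a UMI. S100a8 was at 2.01 and 2.42 CPM in the controls against 3037 and 644 in MOF cKO, in 6 of 9 and 9 of 13 cells. Both MOF cKO libraries stood above both controls for each gene, with the first library above the second. A single cell held 55.6% of the S100a9 UMIs of the second library and 24.9% of those of the first. Slpi followed, at 0 and 1.21 CPM in the controls against 498 and 41.1 in MOF cKO. Fitted log2 differences (MOF cKO minus control, with SE, 2 libraries a group) were 11.57 (1.16) for S100a9, 10.07 (1.17) for S100a8 and 8.57 (1.60) for Slpi. These 3 genes reached the limit for fitting, 25.3 CPM, only in MOF cKO, so they entered the fit through that group alone. The controls held 0 and 3 UMIs of S100a9, 1 and 2 of S100a8 and 0 and 1 of Slpi, so the sizes are uncertain. With cells left out that held Ptprc or at least 5 collagen UMIs, only 4 cells remained in each MOF cKO library, and S100a9 was at 7488 and 3913 CPM against 0 and 6.80.

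Defb1 was the fourth member fitted there. It was at 68.3 and 86.0 CPM in the E16.5 control and at 654 and 548 in the MOF cKO suprabasal gate, a log2 difference of 3.46 (SE 0.44). In its case the controls were well above 0, and the MOF cKO libraries did not overlap them. Without the cells with Ptprc or collagen UMIs the groups overlapped, at 163 and 47.6 in control and 704 and 157 in MOF cKO. All 4 fitted members were higher without overlap between the groups, beside 16.1% of the 4266 genes fitted. The members had been chosen on this contrast, so nothing is read from this count. Defb14, too low to be fitted, had no UMI in the controls and was at 41.5 and 17.1 CPM in MOF cKO. It had 13 UMIs over the MOF cKO group. Lcn2 had no UMI in either keratinocyte gate of E16.5 MOF cKO.

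The same genes stood out in the E16.5 MOF cKO basal gate, at lower levels. S100a9 was at 1.49 and 4.72 CPM in the controls against 527 and 74.4 in MOF cKO. It was present in 12 of 21 cells of the first and 5 of 22 of the second library, where 1 cell held 75.8% of it. S100a8 was at 0 and 0.590 in the controls against 85.9 and 18.0 in MOF cKO. Log2 differences were 6.95 (SE 1.14) for S100a9 and 7.38 (1.08) for S100a8. The controls held 5 and 32 UMIs of S100a9 and 0 and 4 of S100a8. Both thus stood well above the controls, most of all in the first library. Slpi, the elastase inhibitor, had no UMI in 703 control cells. It was at 305 CPM in the first MOF cKO library, 60.9% of it in 1 cell, and at 2.26, a single UMI, in the second. The first library thus held 110 of its 111 UMIs. Defb1 was at 16.7 and 27.6 in the controls against 116 and 60.9 in MOF cKO, with a log2 difference of 2.46 (0.51). Defb14 was at 0 and 2.51 in the controls against 85.9 and 0 in MOF cKO, so its groups overlapped. All 3 fitted members were higher in both MOF cKO libraries than in either control, beside 10.6% of the 9454 genes. The choice of the members had used this contrast too. The 12 neutrophil markers also summed higher in this gate, to 69.3 and 29.3 CPM in MOF cKO against 2.38 and 1.33, with 9 and 11 of the 12 at 0 in MOF cKO and 7 in each control. The periderm markers were at 3827 and 974 against 9.24 and 177. The part of either in these levels was not tested. After leaving out cells with Ptprc or collagen UMIs, 8 and 3 cells were left, and the 3 of the second library held no UMI of S100a8, S100a9 or Defb1.

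At E15.5 the S100 pair stood far above the controls in the suprabasal gate of 1 of the MOF cKO libraries, replicate 5. S100a9 was at 2.97 and 3.02 CPM in the controls, 218 in replicate 5 and 4.57 in the mosaic replicate 6. The share of cells with a UMI was 4.08% and 3.88% in the controls, 29.3% (95% Wilson interval 23.2 to 36.1) in replicate 5 and 7.04% (4.31 to 11.3) in replicate 6. S100a8 was at 0 and 0.121 in the controls, 64.7 in replicate 5 and 0.217 in replicate 6. Replicate 5 therefore carried nearly all of the difference, and replicate 6 lay close to the controls. Slpi was at 0 and 0.121 in the controls, 25.4 in replicate 5 and 0.435 in replicate 6. Lcn2 was at 4.31 in replicate 5, from 19 UMIs of which 1 cell held 68.4%, and at 0 to 0.217 in the other libraries. Defb1 was at 15.9 and 10.8 in the controls, 79.2 in replicate 5 and 17.4 in replicate 6. Both fitted members did not overlap between the groups, beside 16.7% of 10819 genes. Without replicate 5 the log2 difference of S100a9 fell from 5.45 (SE 1.73) to 0.53 and that of Defb1 from 2.10 (0.77) to 0.38.

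**Figure D3:**
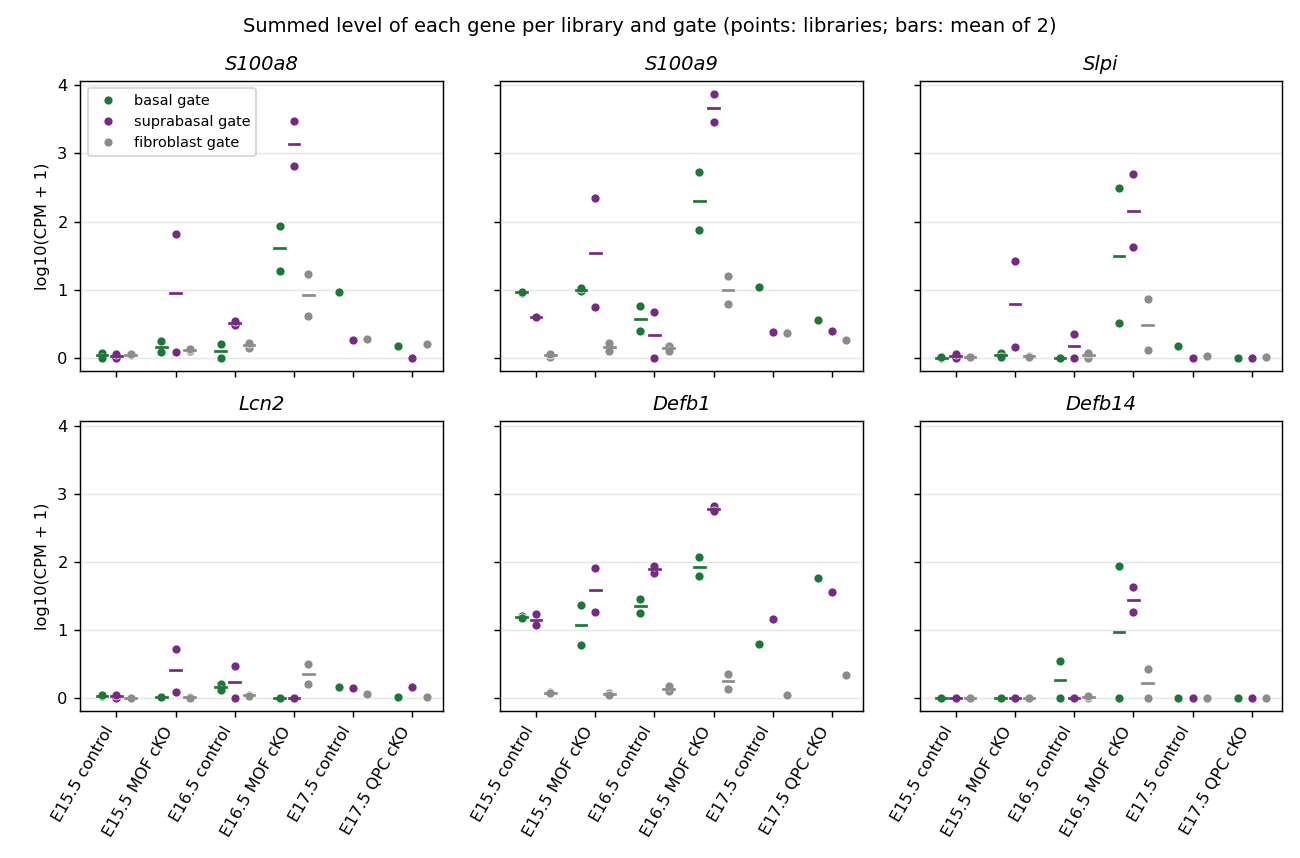
Log10 of CPM plus 1 (y axis) of the 6 genes by group (x axis), with a point for each library in the basal, suprabasal and fibroblast gates and a short bar at the mean of 2 libraries. S100a8, S100a9 and Slpi are at or below 3.63 CPM in control suprabasal gates and reach 3037, 7408 and 498 CPM in the E16.5 MOF cKO suprabasal gate.

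Within replicate 5 most suprabasal-gate cells with S100a8 or Slpi also held S100a9, whereas Defb1 was in cells with and without it. Of 55 cells with an S100a9 UMI, 19 had S100a8, 13 Slpi, 37 Defb1 and 3 Lcn2. Of the 133 cells without one, 2 had S100a8, 1 Slpi, 40 Defb1 and 1 Lcn2. The cells with S100a9 were somewhat deeper, with a median of 26949 against 21955 UMIs. Other genes that differed between these cells were picked after their values were seen and are not tested. Krt6b, a keratin of wounded epidermis, was at 1179 CPM in the cells with S100a9 and at 0.337 in those without, and Krt6a at 2792 and 56.3. The cytokine gene Tslp was at 300 against 2.02, the cornified envelope gene Sprr1a at 684 against 43.5 and the connexin gene Gjb2 at 724 against 46.9. The basal keratin gene Krt15 was lower, at 68.1 against 391, and so was the mitotic gene Cenpf, at 16.0 against 122. At E16.5 the 7 and 10 MOF cKO suprabasal-gate cells with S100a9 held Krt6a at 17928 and 13244 CPM in their sums. S100a8 was in 6 of the 7 and 9 of the 10 such cells and Defb1 in 7 and 9, whereas the 2 and 3 cells without S100a9 held no UMI of S100a8, Slpi or Defb1.

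Krt6a also belongs to the list of periderm markers, whose summed level moved with these genes. The list of 6 genes was at 40.2 and 89.6 CPM in the E16.5 control and at 16550 and 10257 in the MOF cKO suprabasal gate. Krt6a made up 16508 and 10199 of these, and Krt4, Krt8, Krt18 and Krt19 were at 0 in both MOF cKO libraries. Of the 12 neutrophil markers 11 were at 0 in that gate in the first library and 12 in the second, and no neutrophil-marked cell fell in a keratinocyte gate at E16.5. The keratin balance also differed, with Krt14 at 30400 and 20165 CPM against 6804 and 6883, and Krt10 at 4184 and 9740 against 18630 and 21617. The part of these shifts in the levels of the 6 genes was not tested.

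In basal-gate cells at E15.5, S100a9 was present at about the same level in all 4 libraries, and mostly without its partner. It was at 8.01 and 8.41 CPM in the controls against 8.46 and 9.45 in MOF cKO, a log2 difference of 0.27 (SE 0.19). The share of cells with a UMI was 4.94% and 6.11% in the controls, against 9.66% and 6.57% in MOF cKO. Thinned to 3000 UMIs a cell, these shares were 1.74%, 1.94%, 2.34% and 2.08%. In the fibroblast gate of the controls 0.0426% and 0.194% of cells had an S100a9 UMI. S100a9 did not overlap between the groups and Defb1 did, beside 17.7% of 14364 genes that were higher without overlap. Without 2 neutrophil-marked cells in the gate of replicate 5 its S100a9 was at 8.34 CPM, and the groups then overlapped. S100a8 was at 0.191 and 0 CPM in the controls against 0.750 and 0.201 in MOF cKO. In the controls S100a8 was seen in 2 of 122 and 0 of 158 cells with an S100a9 UMI. In MOF cKO it was seen in 4 of 87 such cells and 0 of 814 others of replicate 5, and in 1 of 95 and 5 of 1350 of replicate 6.

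These control cells with S100a9 often held genes of the hair placode and germ. Dkk4, a Wnt inhibitor of placodes, had a UMI in 33.6% and 39.2% of the basal-gate cells with S100a9 and in 5.11% and 4.45% of those without, in the 2 E15.5 controls. Shh, the placode's hedgehog ligand, was in 34.4% and 45.6% against 6.43% and 5.52%. Fgf20, a placode growth factor, was in 32.8% and 38.0% against 7.58% and 5.65%. Depth was similar, with median UMIs of 16795 against 15784 and 18926 against 18290. The mosaic replicate 6 had a like pattern, with Dkk4 in 29.5% against 4.37% and Shh in 21.1% against 3.33%. In replicate 5 these genes were rarer, with Dkk4 in 8.05% against 1.60% and Shh in 6.90% against 3.19%. At E17.5 Dkk4 was in 9.47% against 1.95% of control and 11.9% against 2.93% of QPC cKO cells. Krt15 ran the other way in the E15.5 controls, at 1419 and 1209 CPM with S100a9 and 3255 and 3171 without. In the E15.5 controls Defb1 was rarer in the cells with S100a9, in 5 of 122 and 8 of 158, against 399 of 2348 and 410 of 2426 of the other cells. That was not so in every library, with Defb1 in 9 of 87 against 63 of 814 cells of E15.5 MOF cKO replicate 5 and in 15 of 42 against 347 of 1024 of E17.5 QPC cKO. The genes set beside S100a9 here were picked from these same cells after their values were seen, so the split is a description.

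**Figure D4:**
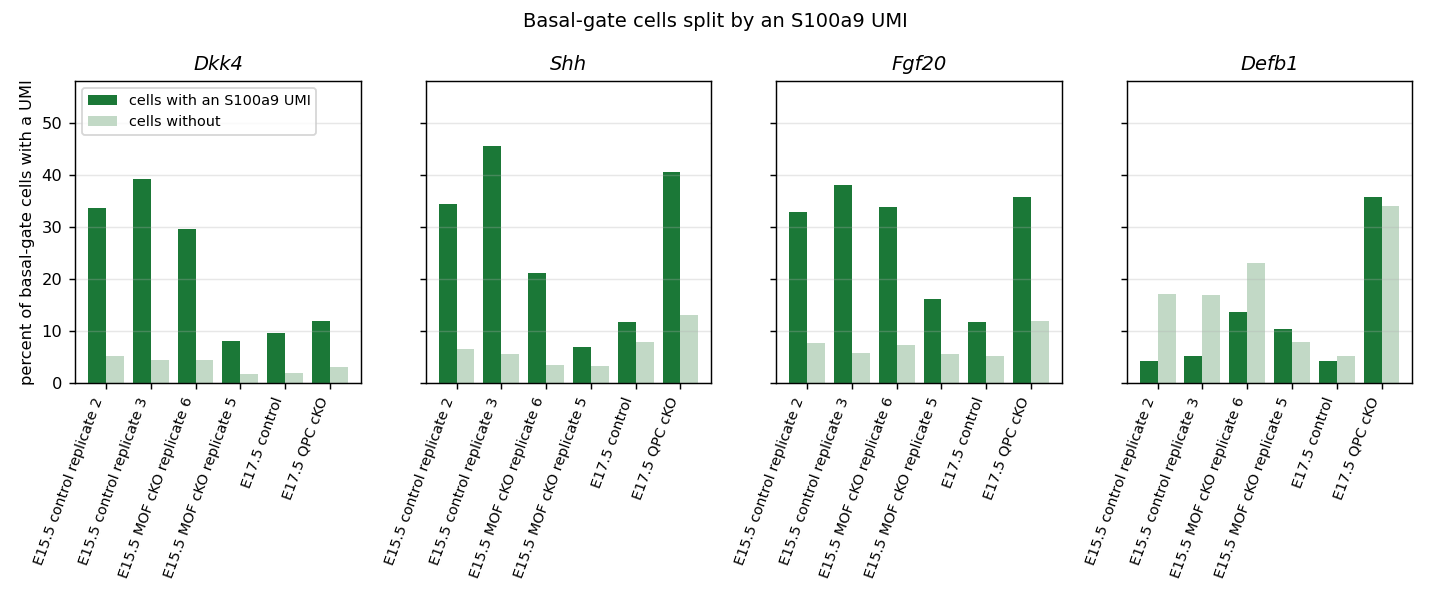
Percent of basal-gate cells with a UMI of Dkk4, Shh, Fgf20 or Defb1 (y axis) among cells with (dark) and without (light) an S100a9 UMI, for the E15.5 and E17.5 libraries (x axis). In the E15.5 controls Dkk4 is in 33.6% and 39.2% of cells with S100a9 and in 5.11% and 4.45% of those without, and Defb1 runs the other way there but not in E15.5 MOF cKO replicate 5 or E17.5 QPC cKO.

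Defb1 had its own pattern across stages and genotypes. In E15.5 basal-gate cells it was at 14.8 and 14 CPM in the controls, 4.98 in MOF cKO replicate 5 and 22.1 in replicate 6. The MOF cKO libraries thus lay on either side of the controls, and the log2 difference was -0.02 (SE 0.58). Within the E15.5 controls, basal-gate cells with Defb1 more often held Dlk2, a Notch ligand-like gene, in 65.3% and 72.7% against 40.8% and 43.1%. They less often held Fn1, the fibronectin gene, in 16.8% and 16.3% against 31.6% and 34.2%. Dlk2 and Fn1 were also picked after their values were seen. At E17.5 Defb1 was at 5.23 CPM in the control basal gate (95% Poisson interval 4.69 to 5.81) and at 57.8 (54.9 to 60.8) in QPC cKO. It was in 5.09% and 34.0% of these cells. In the suprabasal gate it was at 13.4 (10.4 to 17.1) in control and 35.0 (27.4 to 44.0) in QPC cKO. Defb1 was therefore higher in QPC cKO in both keratinocyte gates of these 2 libraries, 9.44-fold and 2.49-fold in CPM plus 1. The fibroblast markers differed too, at 30716 CPM in the control basal gate against 5376 in QPC cKO. In the 250 control and 483 QPC cKO basal-gate cells without Ptprc and with fewer than 5 collagen UMIs, Defb1 was at 7.17 and 59.7. With doubled keratin thresholds the basal log2 ratio was 2.48. A difference of at least 2-fold was seen for 11.2% of 15412 genes in the basal gate and for 4.19% of 9967 in the suprabasal gate. Higher in QPC cKO were 1.34% and 1.08%, and lower 9.83% and 3.11%. With cells under 5% mitochondrial UMIs only, the suprabasal log2 ratio of Defb1 went from 1.32 to -0.46, and the basal one from 3.24 to 3.81. The fibroblast-gate share of cells with a Defb1 UMI was 0.212% in control and 2.16% in QPC cKO, so a share of the latter size was seen in cells that are not known to make it. With 1 library a group no test was possible, and the intervals cover counting error only.

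**Figure D5:**
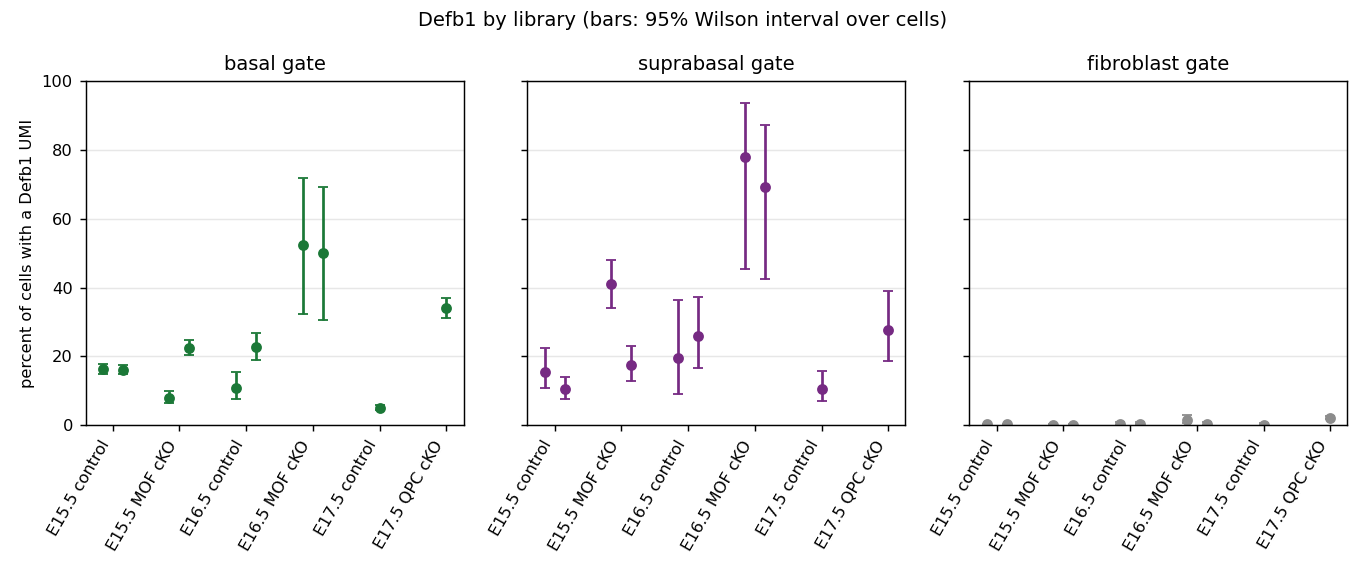
Percent of cells with a Defb1 UMI (y axis) by group (x axis) in the basal, suprabasal and fibroblast gates, a point for each library with its 95% Wilson interval over cells. The E17.5 QPC cKO basal gate stands at 34.0% against 5.09% in its control, and the E16.5 MOF cKO suprabasal gate at 77.8% and 69.2% against 19.4% and 25.8%.

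S100a8 did not share that pattern at E17.5. In the basal gate S100a8 was at 8.26 CPM in the control, against 0.500 in QPC cKO, and S100a9 at 10.1 and 2.62. The control values rested on 4 neutrophil-marked cells in the gate. Without them S100a8 was at 1.12 and S100a9 at 1.48 in the control, so S100a9 was then higher in QPC cKO. Lcn2 and Slpi, at 0.453 and 0.483 in the control, were at 0.257 and 0.363 without those cells, against 0.0385 and 0 in QPC cKO. In the suprabasal gate S100a8, S100a9, Lcn2 and Slpi had 0 to 7 UMIs a library. Defb14 had no UMI in any gate at E15.5 or E17.5.

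Ptprc-positive cells held S100a8 in every library, and S100a9 in every library but the E16.5 controls. S100a8 was at 25.8 and 23.6 CPM in the E15.5 controls and 163 and 101 in MOF cKO, and at E16.5 at 139 and 265 in the controls against 7099 and 454 in MOF cKO. S100a9 was at 7.79 and 5.36 in the E15.5 controls and 196 and 150 in MOF cKO. At E16.5 it had no UMI in the 26 and 56 control cells and was at 839 and 334 in MOF cKO. Within this gate the MOF cKO libraries were above the controls for both genes at both stages, and for S100a9 few cells carried these values. No share over all genes was counted in this gate. The gate also missed control cells rich in both genes. A neutrophil-marked cell of E16.5 control replicate 1 held 524 S100a8 and 517 S100a9 UMIs without a Ptprc UMI. Another, of E15.5 control replicate 2, held 406 and 832. A like cell of E16.5 MOF cKO replicate 2, with 466 and 465, was counted. The contrasts of both genes thus depend on which such cells held Ptprc, and no direction is read from them. A single cell held 95.7% of the S100a9 UMIs of E16.5 MOF cKO replicate 2, 33.3% of those of replicate 1, where 26 of 86 cells had one, and 41.5% and 54.3% of those of the E15.5 replicates. S100a8 was more widely held in E16.5 MOF cKO replicate 1, in 49 of 86 cells, with 13.4% of its UMIs in the richest one. In replicate 2 it was in 19 of 96, and 1 cell held 70.6%. Slpi was at 13.6 and 1.84 in the E16.5 controls and at 349 and 41.3 in MOF cKO. At E17.5 S100a8 was at 1228 in control and 1542 in QPC cKO, S100a9 at 1618 and 1804, and Lcn2 at 97.8 and 183. Such sums mix the number of cells with the RNA in each. Monocyte-marked were 81 of 8396 and 62 of 9117 kept cells of the E15.5 controls and 200 of 10179 and 187 of 10653 of MOF cKO. At E16.5 they made up 0.439% and 0.940% of kept cells against 7.82% and 3.96%. Their share was thus higher in MOF cKO without overlap at both stages. Basal-gate cells made up 29.4% and 28.3% of kept cells in the E15.5 controls and 8.83% and 13.6% in MOF cKO. Shares of kept cells depend on the other classes too, and the part of this was not tested. The study, with its own cell types, reported that a rise of immune cells was not seen at E15.5. Within monocyte-marked cells S100a8 was at 207 and 204 in the E15.5 controls and 258 and 102 in MOF cKO, and at 1874 and 702 in the E16.5 controls against 9147 and 423 in MOF cKO, so this level per class overlapped between the groups at both stages.

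Fibroblast-gate cells had not been used to choose the genes, but they came from the same libraries as the cells that were. Their test is therefore not independent of that choice. S100a9 was at 0.515 and 0.241 CPM in the E16.5 controls and at 14.8 and 5.14 in MOF cKO, in 16.3% and 5.96% of cells against 0.552% and 0.247%. Its log2 difference was 4.93 (SE 0.79), with an adjusted p of 0.0424 by the edgeR quasi-likelihood test over 12870 genes, higher in 2 of 2 MOF cKO libraries. The controls held 4 and 4 UMIs of S100a9 against 107 and 69, below the filter on low counts, so the gene entered the fit only through the group where it was high. Fitted without that filter, over all genes with a UMI, its difference was 4.90 with an edgeR adjusted p of 5.13e-04. The call was lost without control replicate 1 (adjusted p 0.0875), control replicate 2 (0.152) or MOF cKO replicate 1 (0.0937). S100a8 was at 0.386 and 0.664 in the controls against 16.2 and 3.13 in MOF cKO. Its log2 difference of 4.15 did not pass, with an adjusted p of 0.0830 in the same edgeR test. DESeq2 gave S100a8 an adjusted p of 6.20e-05, and edgeR gave 0.0442 by library size alone and 0.00483 without the filter on low counts. Each of these 3 settings also called more of all genes than the 508 of the main fit, as given at the end. No support is therefore read from the smaller p-values of either gene. Both fitted members were higher without overlap, beside 18.8% of genes. S100a8 too passed the filter only through MOF cKO, so nothing is read from this count. No cell held more than 4 UMIs of S100a9 or 3 of S100a8 in these libraries, so the UMIs were thinly spread. In the 61 and 305 cells without any UMI of Krt1, Krt5, Krt10 or Krt14, S100a9 was at 14.3 and 3.83. In the fibroblast gate Krt14, a gene of keratinocytes, was at 103 and 53.6 in MOF cKO and at 290 and 167 in the controls. Macrophage markers (7 genes) summed to 107 and 183 in MOF cKO and to 16.7 and 16.0 in the controls. The 12 neutrophil markers summed to 2.91 and 3.72 and to 1.42 and 0.603. The part of free RNA or of such cells in the S100a9 difference was not tested.

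At E15.5 the fibroblast gate showed small values. S100a9 was at 0.0359 and 0.140 CPM in the controls against 0.654 and 0.244 in MOF cKO, a log2 difference of 2.25 (SE 0.75) with an edgeR adjusted p of 0.262. For S100a8 the difference was 1.5 (0.40), adjusted p 0.217 by edgeR, and for Defb1 -0.55 (0.43), adjusted p 0.593 by edgeR. Of these 3, the S100 pair was higher without overlap, beside 25.1% of 16255 genes, and Defb1 was lower. The edgeR test called 0% of the genes. Before adjustment 2488 had p under 0.05, and DESeq2 called 432.

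Around the 6 genes, 76 others of related function were followed, of which 75 were listed at E16.5. They were S100 family members, defensins, protease inhibitors, bacterial wall-degrading proteins, metal-binding proteins, cytokine alarmins, acute phase proteins, receptors and regulators of the members. In the E16.5 MOF cKO suprabasal gate 24 were fitted and 4 called by edgeR, 2 in each direction, beside 4.03% of all genes fitted there. Lyz2, a lysozyme, rose from 8.04 and 4.84 CPM to 31.1 and 41.1 (adjusted p 0.0314). Stat3, which carries IL-6 and IL-22 signals, rose by 2.26 on the log2 scale (adjusted p 0.0390). Saa1, an acute phase gene, fell from 165 and 145 CPM to 0 and 0 (adjusted p 0.0158). Il1f5, the antagonist of the IL-36 receptor, fell from 295 and 389 to 41.5 and 27.4 (adjusted p 0.0269). Lyz2 and Stat3 passed the filter on low counts only through MOF cKO and Saa1 only through the controls. The number called was 2 without MOF cKO replicate 1, 1 without MOF cKO replicate 2, 9 and 8 without the controls and 2 with the replicate block. All genes called with those 4 libraries left out came to 0.493%, 1.89%, 5.88% and 5.90%. In the E16.5 basal gate 29 were fitted and none was called by edgeR, beside 0.243% of all genes, against 7 by DESeq2, which called 286 of all genes. An unadjusted p under 0.05 was found for 13 of the 29 and for 1923 of the 9454 genes. Among those with at least 20 CPM in either group the largest differences were those of Tslp, 8.60 with an adjusted p of 0.0628, and Lyz2, 4.90, on the log2 scale. The third was Il1f9, an IL-36 cytokine, at 1.79 and 1.18 CPM in the controls against 41.6 and 6.77 in MOF cKO.

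At E15.5 none of the related genes was called by edgeR in any gate, of 36 fitted in the basal, 33 in the suprabasal and 39 in the fibroblast gate, whereas DESeq2 called 2, 1 and 1. Of all genes 0% were called by edgeR in each gate, and 106, 49 and 432 by DESeq2. An unadjusted p under 0.05 was found for 8, 6 and 5 related genes, beside 1309 of 14364, 836 of 10819 and 2488 of 16255 of all genes. Without the mosaic replicate 6 edgeR called 21 of 41, 15 of 37 and 2 of 42 of them, with the lone MOF cKO library taken to vary like the controls. The same fits called 7518 of 15213, 1762 of 11374 and 371 of 16360 genes. In the basal gate Tnfaip3, a brake on NF-kB, was at 46.9 and 45.4 CPM in the controls against 14.4 and 16.8 in MOF cKO, with an edgeR adjusted p of 0.508. The calcium-binding S100a13 was at 35.5 and 35.7 against 13.3 and 25.8, and S100a6 at 59.3 and 42.4 against 79.6 and 51.4. In the suprabasal gate Lyz2 was at 0.661 and 0.484 against 61.5 and 8.48, Spink5, an inhibitor of epidermal proteases, at 4.96 and 4.84 against 83.3 and 12.2, and S100a6 at 20.5 and 24.3 against 55.1 and 37.2. None of these 3 passed the edgeR test (adjusted p 0.631 for each). In the fibroblast gate the largest differences among genes with at least 20 CPM in either group were 0.31 on the log2 scale for Nfkbiz, a regulator of NF-kB target genes, and for the metallothionein genes Mt1 and Mt2, both -0.29. In the E16.5 fibroblast gate 6 of 39 were called by edgeR, all higher in MOF cKO, beside 3.95% of all genes. Saa3, an acute phase gene, went from 0 and 0 CPM to 160 and 35.2 (adjusted p 0.0474), and it too passed the filter on low counts only through MOF cKO. Lyz2, a macrophage gene, went from 7.60 and 7.54 to 141 and 115 (adjusted p 0.00824), and Mt2 from 38.8 and 42.7 to 401 and 185 (adjusted p 0.0367). The others were Stat3, Nfkbiz and Il33. Without control replicate 2 edgeR called none of the related genes and 0% of all genes. It called 2 without control replicate 1 (0.724% of all genes), 5 without MOF cKO replicate 1 (0.468%) and 9 without MOF cKO replicate 2 (1.66%).

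At E17.5 the related genes were compared by size alone. In the basal gate 48 had at least 20 UMIs, and 1 was at least 2-fold higher and 12 at least 2-fold lower in QPC cKO, beside 1.34% and 9.83% of all genes. With doubled keratin thresholds 3 of 41 were higher and 3 lower, and the 2-fold differences of all genes fell from 1722 to 320. The fibroblast markers, at 30716 CPM in the control basal gate against 5376 in QPC cKO, moved with these counts, and their part was not tested. Il1a, an interleukin-1 alarmin, was at 16.0 CPM in control and 0.885 in QPC cKO, the transcription factor gene Cebpd at 192 and 21.2, and Lyz2 at 50.0 and 6.62. Il1f5 was at 8.58 and 14.3, S100a14 at 401 and 644 and S100a3 at 1.83 and 3.77. The gene at least 2-fold higher, named after its values were seen, was Spink5, at 0.196 and 3.08. In the suprabasal gate 3 of 30 were at least 2-fold higher and 0 lower, beside 1.08% and 3.11% of all genes. These, also named afterwards, were Spink5 at 9.63 and 33.0, Serpinb1a, an inhibitor of neutrophil proteases, at 7.62 and 35.4, and Tnfaip3 at 5.82 and 15.8. Among genes with intervals apart there, Cebpb was at 288 and 473, S100a6 at 66.6 and 87.1, S100a11 at 2008 and 1719, S100a10 at 739 and 629 and Mt1 at 699 and 586.

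Likeness to each member was measured by Pearson's r over 40 sums (10 libraries in 4 gates) among 10470 genes, as a description of sums that share libraries and depth. The lists changed with the measure. By Spearman's rho the 5 most alike genes shared 1 with those below for Lcn2 and Defb1, 2 for S100a8 and Slpi and 3 for S100a9. Lcn2 was most like the neutrophil markers Ngp (0.93), Ltf (0.92), Stfa2l1 (0.91), Retnlg (0.91) and Camp (0.90), whose rho was 0.50 to 0.63. S100a8 was most like Gch1 (0.92), Slpi (0.90), Arpc5 (0.90), Sh3bgrl3 (0.89) and Adam8 (0.88). S100a9 was most like Cxcl16 (0.86), Areg (0.85), Slpi (0.85), S100a8 (0.82) and Csta3 (0.79). Slpi was most like S100a8 (0.90), Dnase1l3 (0.87), S100a9 (0.85), Gch1 (0.84) and Csta2 (0.81). Defb1 was most like Urah (0.95), Csta1 (0.94), Gjb6 (0.94), Gjb2 (0.93) and Fam83g (0.92). Defb14 was too low for this comparison.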

How the data were processed

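The authors deposited UMI counts per gene and cell barcode, without normalization. Per the labels and the study's methods they were made with Cell Ranger (versions 1.3.1 and 6.1.2 are listed in the submitters' processing notes) on mm10, with 10x 3′ v2 chemistry at E16.5 and later chemistries at E15.5 and E17.5, so stage and chemistry cannot be told apart. The 6 genes, the lists of related genes and the gates were chosen with earlier results of these data known.

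Cells were filtered as in the study and gated by keratin, collagen and Ptprc UMIs. No doublet caller was run. UMIs were summed per library and gate, with libraries as replicates. Replicates are separate samples in the labels, and p-values measure only the spread between them. Genes were tested at E15.5 and E16.5 in each gate with the edgeR 4.0.16 quasi-likelihood test after filterByExpr and TMM, at a Benjamini-Hochberg adjusted p under 0.05. DESeq2 1.42.0, library size alone, no filter, each library left out, under 5% mitochondrial UMIs, cells of other lineages left out (Ptprc or at least 5 collagen UMIs), doubled keratin thresholds and, at E16.5, a replicate block were alternatives. Replicate numbers are shared at E16.5 only, where same-numbered libraries deviated with correlations of -0.075, -0.034 and -0.025. With 2 libraries a group these cannot show whether libraries are paired. The study describes pairs of samples and littermate controls, but the labels do not say which libraries are littermates. On counts simulated at each gate's depth most 2-fold changes were not called at E16.5, so a gene not called there may still differ. At E17.5, CPM carry exact 95% Poisson intervals. Intervals and limits (3 counts for a count of 0) cover counting error only. Depth is given in the report.

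Named are the 6 genes, and from the related lists the 3 largest rises and falls past the threshold without overlap and with at least 20 CPM in either group, or, where none passed, the 3 largest differences. At E17.5 they are the 3 largest among genes with at least 100 UMIs and intervals apart. Genes named beside cells with S100a9 or Defb1, the marker classes and their shares with a library or stage left out, and the E17.5 counts of related genes with doubled thresholds, were chosen after the data were seen. Likeness used genes with at least 5 CPM. Other tools were Python 3.11.15, R 4.3.3 and scipy 1.17.1.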

Additional observations from a re-analysis of the deposited data

Results flagged for a closer look

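Barcodes removed by the cell filter, used in no comparison above, held some members above the level of the same barcodes in the controls of their stage, for genes or lists with at least 20 UMIs in at least 1 library. The values of E16.5 MOF cKO replicate 2 rest on 7 to 13 UMIs. Values are CPM of the removed barcodes. S100a8 was at 39.2 in E15.5 MOF cKO replicate 6, against 1.65 and 0.165 in the controls and 0.549 in replicate 5. It was at 11.2 and 2.25 in E16.5 MOF cKO replicates 1 and 2, against 0.0 and 0.456 in the controls. S100a9 was at 3.68 and 63.5 in E15.5 MOF cKO replicates 5 and 6, against 3.59 and 2.67, and at 19.0 and 2.25 in E16.5 MOF cKO, against 0.0 and 2.09. Lcn2 was at 0.778 and 7.88 in E15.5 MOF cKO, against 0.145 and 0.514. The 12 neutrophil markers together were at 2.36 and 37.4 in E15.5 MOF cKO, against 0.579 and 0.453, and at 7.02 and 1.97 in E16.5 MOF cKO, against 0.95 and 0.391. Defb1 was at 5.2 and 3.66 in E16.5 MOF cKO, against 2.85 and 0.913, and at 36.0 in E17.5 QPC cKO, against 6.63. In 1 library only, Slpi was at 6.76 in E16.5 MOF cKO replicate 1, against 0 and 0 in the controls, and Defb1 at 6.63 in E15.5 MOF cKO replicate 6, against 2.78 and 2.65. In the removed barcodes of the E17.5 control S100a8 was higher than the 0.971 of QPC cKO, with S100a9 at 22.3, against 2.19, and the neutrophil markers at 17.9, against 2.51. The neutrophil markers moved with S100a8, S100a9 and Lcn2 in the mosaic E15.5 replicate 6 and with the S100 pair at E17.5, and their part in these levels was not tested.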

How the results depend on the processing

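The counts of genes called in each gate depended on the settings. In the E15.5 basal gate (0) they were 2 without a filter on low counts and 106 with DESeq2. In the E16.5 basal gate (23) they were 991 without the filter, 286 with DESeq2, 12 under 5% mitochondrial UMIs, 97 with cells of other lineages left out, 824 with doubled keratin thresholds and 52 with the replicate block. In the E15.5 suprabasal gate (0) they were 525 without the filter and 49 with DESeq2, and in the E16.5 one (172) 305 by library size alone, 636 without the filter and 88 with the replicate block. In the E15.5 fibroblast gate (0) they were 381 without the filter, 432 with DESeq2 and 1 without cells of other lineages. In the E16.5 one (508) they were 817 by library size alone, 1441 without the filter, 994 with DESeq2, 119 without cells of other lineages and 265 with the replicate block. At E17.5, 2-fold differences numbered 320 with doubled thresholds in the basal gate (1722) and 632 under 5% mitochondrial UMIs in the suprabasal gate (418). With 1 library left out they ranged from 0 to 7518 (basal, E15.5), 0 to 434 (basal, E16.5), 0 to 1762 (suprabasal, E15.5), 30 to 247 (suprabasal, E16.5), 0 to 371 (fibroblast, E15.5) and 0 to 213 (fibroblast, E16.5). The E15.5 maxima came without the mosaic replicate 6. Fits that leave a lone library assume that it varies like the other group. The cause of these changes was not tested.

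Library size alone moved the median of all genes at E16.5 from -0.11 to -0.64 (basal), from -0.05 to -0.58 (suprabasal) and to -0.11 (fibroblast) on the log2 scale. It split the suprabasal calls into 126 higher and 179 lower (143 and 29 after TMM), and the fibroblast calls into 374 and 443 (304 and 204 after TMM). The replicate block rests on a shared number only, and under it S100a9 in the E16.5 fibroblast gate, which entered the fit only through MOF cKO, had an edgeR adjusted p of 0.0239. Without the block the call was lost when control replicate 1, control replicate 2 or MOF cKO replicate 1 was left out.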
